A study of Homo sapiens with 10 samples.

Results

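Olfactory receptor genes were targeted by 1080 of the 55849 sgRNAs listed in a genome-wide CRISPR knockout screen of 22Rv1 cells, a human prostate cancer line. These sgRNAs were taken by gene symbol alone, as every row whose symbol has the form OR, a family number, a subfamily letter and a member number (such as OR8H2), without reference to any count. They cover 366 gene symbols out of 18686, of which 353 had 3 sgRNAs, 8 had 2 and 5 had 1. The symbols were matched to RefSeq annotation of the assembly GRCh38.p14, used for names and gene order only: 364 are current symbols, 2 are older names (OR5R1 for OR8U3 and OR8G2 for OR8G2P), and 3 of the matched genes are annotated as transcribed pseudogenes. The deposited table identifies each sgRNA by a library number and not by its sequence, so no guide sequences are given.

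The screen compared 22Rv1 cells overexpressing NMYC, the protein of the MYCN gene, with the parental line, and its design asked which knockouts harm cells only when MYCN is overexpressed. NMYC cells gave 1 library at T0 (after puromycin selection), 2 at T6 and 2 at T12, and parental cells gave the same numbers; all of them carried the lentiviral Cas9 and sgRNA library lentiCRISPRv2_B, taken up at a multiplicity of infection of 0.3. The T6 and T12 libraries come from duplicate cultures plated after a single infection of each arm, so differences between them measure spread that arose in culture, sampling or sequencing and not between infections. Per the labels, culture lasted 12 generations with a passage every 72 hours and a library coverage of 300x. They do not say which unit T6 and T12 count, nor do they name the promoter driving NMYC or the number of clones behind the line. The libraries are amplicons of genomic DNA, so neither NMYC nor any cell type marker could be checked.

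Olfactory receptors are G protein-coupled receptors of the sensory neurons of the nose, and each mature neuron expresses a single receptor gene. They signal through the G protein subunit encoded by GNAL, adenylyl cyclase ADCY3 and a cyclic nucleotide-gated channel. The family is the largest of mammalian genes, arranged in clusters, with class I receptors (families OR51 to OR56) in a single large cluster and class II receptors spread over many. Because most tissues do not express these genes, guides against them serve in CRISPR screens as cutting controls. Such guides make a DNA break while loss of the gene itself should not affect growth, whereas non-targeting guides cut nothing. OR51E1 and OR51E2 (also called PSGR2 and PSGR) are exceptions, being known as receptors expressed in prostate and raised in prostate cancer; expression was not measured here.

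Library totals ran from 8783512 to 18398571 counts, and reads of PCR products are not independent molecules, so intervals and floors below cover counting error only. An sgRNA was kept if it averaged at least 20 counts over the 10 libraries, which 1037 of the 1080 receptor sgRNAs did, against 934 of 989 non-targeting sgRNAs and 53040 of all. The kept sgRNAs left 313 receptor genes with 3, 45 with 2 and 8 with 1. The receptor sgRNAs held 2.04% to 2.48% of the counts of a library while making up 1.93% of the listed sgRNAs. Between 2.31% (95% Wilson interval 1.57% to 3.39%, NMYC T0) and 8.06% (6.58% to 9.83%, first NMYC T12 library) of them had 0 counts in a library.

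The receptor sgRNAs were more abundant than the non-targeting sgRNAs in every library, T0 included. In NMYC cells the median receptor sgRNA stood at 11.80 CPM (counts divided by the library size after TMM adjustment) at T0, then at 11.77 and 12.04 at T6, then at 12.10 and 10.67 at T12. In parental cells the median was 9.78 CPM at T0, then 11.48 and 10.90 at T6, then 11.18 and 11.74 at T12. The receptor medians were thus within a narrow band, with parental T0 the lowest. The ratio of the receptor median to the non-targeting median ran from 1.101 to 1.59 over the 10 libraries, and that to the median of all other targeting sgRNAs from 1.11 to 1.57. The difference from either set was present in 10 of 10 libraries, but it was not tested, since all of them derive from the same sgRNA pool. Nor was it particular to olfactory receptors. The median of sgRNAs against other chemoreceptors, such as taste receptors, was above either set in 9 of 10 libraries. Its ratios ran from 0.971 to 1.93 against non-targeting and from 0.885 to 1.85 against all other targeting sgRNAs.

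From T0 to T12 the receptor sgRNAs as a group moved little in either arm. The change of an sgRNA in 1 library was taken as log2(CPM + 5) minus the same at T0 of its arm, a scale that understates changes of low sgRNAs. Relative to the median non-targeting sgRNA, the median receptor sgRNA lay at -0.09 and -0.03 in the T12 libraries of NMYC cells and at -0.00 and -0.02 in those of parental cells. At T6 it lay at -0.14 and -0.12 in NMYC cells and at -0.14 and 0.05 in parental cells. It was thus at or below the non-targeting median in 7 of the 8 later libraries, and the second parental T6 library was the exception. For scale, sgRNAs against core genes of the ribosome, proteasome and other essential machines (605 kept) lay at -0.21 and -0.32 at NMYC T12 and at -0.11 and -0.19 at parental T12, below the receptor sgRNAs in 4 of 4 libraries. So did sgRNAs against olfactory signalling genes (78 kept), at -0.29 and -0.098 at NMYC T12 and at -0.26 and -0.023 at parental T12. These lay below the core genes in the first T12 library of each arm and above them in the second. A place below the receptors was thus not particular to core genes, and the differences were not tested.

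In the edgeR fit across all 53040 kept sgRNAs, the median fitted log2 change from T0 to T12 was 0.26 for receptor sgRNAs, 0.54 for non-targeting and 0.24 for all sgRNAs in NMYC cells. In parental cells it was 0.55 for receptor sgRNAs, 0.79 for non-targeting and 0.57 for all. Receptor sgRNAs were at the median of the whole library in both arms: 517 of 1037 lay below the median sgRNA in NMYC cells and 519 of 1037 in parental cells. The gap to the non-targeting median was -0.28 in NMYC cells and -0.23 in parental cells, and with sgRNAs of at least 30 counts in both T0 libraries the parental gap was of the opposite sign, 0.26. It was -0.11 in NMYC cells without the first NMYC T12 library and 0.0163 in parental cells without the second parental T12 library. On the same fitted scale core genes had a gap of -0.71 in NMYC cells and -0.72 in parental cells. The gap was -0.29 and -0.56 for olfactory signalling genes, and -0.14 and -0.93 for other chemoreceptors. These differences were not tested. Directly at T12, with no T0 library in the comparison, NMYC against parental gave a median of 0.12 for receptor sgRNAs, 0.07 for non-targeting sgRNAs and -0.07 for all. For the difference between the arms' changes, NMYC minus parental, the medians were -0.44, -0.48 and -0.45 for the same sets.

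Behind the stable median, single receptor sgRNAs moved widely, as sgRNAs of the whole library did. At T12 9.55% and 10.61% of them lay more than 4-fold below T0 in NMYC cells, and 13.69% and 13.21% did in parental cells, where all sgRNAs gave 10.39% and 11.25% in NMYC cells and 15.02% and 14.18% in parental cells. Those more than 4-fold above T0 made up 6.65% and 12.63% in NMYC cells and 11.38% and 13.02% in parental cells, against 6.34% and 11.89% of all sgRNAs in NMYC cells and 13.37% and 12.87% in parental cells. Both T12 libraries were over 4-fold lower for 53 receptor sgRNAs in NMYC cells (5.11%; non-targeting 4.93%, all 6.01%) and for 74 in parental cells (7.14%; non-targeting 6.42%, all 8.13%). Both were over 4-fold higher for 25 sgRNAs in NMYC cells (2.41%; all 1.81%) and for 41 in parental cells (3.95%; all 3.83%). The T12 libraries of an arm share their T0 library, so this joint movement is not a count of independent repeats.

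The sgRNAs that moved were mostly not the same in the arms, whose T0 libraries differ. Of the 53 lower in NMYC cells and the 74 lower in parental cells, 4 were shared, which is 7.55% of the NMYC list and 5.41% of the parental list; of the 25 and 41 that were higher, 0 were shared. Over all kept sgRNAs the shared ones made up 8.31% and 6.15% of the lower lists, close to the receptor shares, and 4.48% and 2.12% of the higher lists. The 4 sgRNAs target OR10K2, OR13C9, OR2B6 and OR4L1. The one against OR13C9 had 1766 counts at NMYC T0, then 515 and 160 at T6, then 243 and 74 at T12, and in parental cells 1356 at T0, then 244 and 11 at T6, then 18 and 23 at T12. The one against OR10K2 (HGLibB_33489) had 855 counts at NMYC T0, then 229 and 396 at T6, then 152 and 72 at T12, and in parental cells 1161 at T0, then 1068 and 139 at T6, then 138 and 55 at T12. All 4 were abundant in both T0 libraries, with at least 761 counts in each. This is largely built into the choice, since a 4-fold fall in CPM + 5 needs a T0 level well above 5 CPM. Across the 1037 sgRNAs, the change in NMYC cells and that in parental cells had a Spearman correlation of -0.02 at T12 and -0.05 at T6, given as a description since sgRNAs share their libraries.

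The abundance of a receptor sgRNA at T0 carried over only weakly into later libraries of the same cells. The 108 most abundant receptor sgRNAs of the NMYC T0 library, chosen on that library, held 46.1% of its receptor counts. These same sgRNAs held 16.5% to 17.7% in the 4 later NMYC libraries and 15.3% to 17.5% in the 5 parental libraries, where an equal share would be 10%. Those chosen on parental T0 held 46.5% there, 16.8% to 19.2% in the later parental libraries and 15.9% to 19.5% in NMYC libraries. Chosen on a T12 library, the most abundant 108 held between 35.9% (first NMYC) and 41.8% (first parental) of its receptor counts. Those of the first NMYC T12 library held 21.4% in its replicate and 18.4% to 21.5% in parental libraries, and those of the second 19.6% in its replicate and 14.4% to 19.0% in parental libraries. Those of the first parental T12 library held 19.8% in its replicate and 16.2% to 18.9% in NMYC libraries, and those of the second 20.1% in its replicate and 17.1% to 19.4% in NMYC libraries. At T12 the replicate share was thus above the whole range of the other arm in 3 of 4 cases, and within it for the first NMYC library. Chosen on a T6 library, the replicate share was 21.3% and 21.8% for the NMYC libraries, where parental libraries gave 19.8% to 24.3% and 18.8% to 22.0%, and 22.0% and 15.8% for the parental libraries, where NMYC libraries gave 20.6% to 23.3% and 14.50% to 15.998%, so at T6 it lay within the range of the other arm in 4 of 4 cases. That sgRNAs chosen for abundance are less abundant elsewhere is built into the choice; the choice did not fix the order of the same arm and the other arm, whose ranges overlapped for both T0 libraries.

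Rank correlations over the receptor sgRNAs gave the same picture, as descriptions over guides that share libraries. Replicate libraries correlated at 0.365 to 0.519 (4 pairs), other pairs within an arm at 0.258 to 0.5004 (16 pairs) and pairs across arms at 0.259 to 0.547 (25 pairs). A T0 library correlated with the later libraries of its own arm at 0.258 to 0.451 and with those of the other arm at 0.259 to 0.454. T6 and T12 libraries with the same culture number correlated at 0.346 to 0.5004, and those with different numbers at 0.293 to 0.488. None of these ranges was separate from the others. Weak agreement was not particular to receptor sgRNAs. Over non-targeting sgRNAs the ranges were 0.312 to 0.454 for replicates, 0.286 to 0.465 for other pairs within an arm and 0.288 to 0.493 across arms.

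The most abundant receptor sgRNA differed from library to library. OR2B6 led at parental T0 with 3370 counts, and OR1S2 at NMYC T0 with 3509. The OR1S2 sgRNA had 403 and 125 counts at NMYC T6 and 423 and 498 at NMYC T12, and between 181 and 738 in all parental libraries, so that its high value stood in 1 library of 10. An sgRNA against OR9Q1 led in the first NMYC T6 library with 1757 counts and in the second NMYC T12 library with 3575, had 531 in the first NMYC T12 library, and in parental cells ranged from 984 to 2086. The other leaders were OR5H2, OR6T1, OR6C65 and OR2M7 in parental libraries and OR4S2 and OR51T1 in NMYC libraries.

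Among single receptor sgRNAs, the change from T0 to T12 in NMYC cells gave 1 call. The question of the screen itself, the difference between the arms' changes, gave 0. In NMYC cells from T0 to T12, 1 of 1037 receptor sgRNAs (0.0964%) passed an adjusted p of 0.05 as lower (edgeR quasi-likelihood test, Benjamini-Hochberg over all 53040), where the background over all sgRNAs was 0.0132%, and 0 passed as higher (background 0%). At an unadjusted p under 0.05, 49 were lower (4.73%, background 5.31%) and 19 higher (1.83%, background 1.48%). DESeq2 called 12 lower (background 1.66%) and 15 higher (background 1.29%), 27 in all (2.60%, background 2.94%).

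The called sgRNA targets OR8H2, a class II receptor (HGLibB_34485). It had 1728 counts at NMYC T0, then 1 and 47 at T6, then 0 and 0 at T12. In parental cells it had 811 counts at T0, then 19 and 1 at T6, then 9 and 203 at T12. All 4 later NMYC libraries were far below NMYC T0, and all 4 later parental libraries were below parental T0. Against a floor of 3 counts in each T12 library, it was at least 650-fold lower at NMYC T12 than at T0 (edgeR adjusted p = 0.0443). The adjusted p ranged from 0.000148 to 0.795 over 18 settings and passed in 9 of them, and leaving out any of the 4 later NMYC libraries ended the call. The difference between the arms did not pass for it (edgeR adjusted p = 0.392).

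The other sgRNAs against OR8H2 were divided. HGLibB_34484 had 165 counts at NMYC T0, then 120 and 231 at T6, then 56 and 330 at T12, on both sides of its T0 value. HGLibB_34483 had 88 counts at NMYC T0, then 20 and 291 at T6, then 12 and 18 at T12, with both T12 libraries below T0 as for the called sgRNA. Neither passed in NMYC cells (edgeR adjusted p = 0.998 for HGLibB_34484 and 0.841 for HGLibB_34483). Summed over its 3 sgRNAs, OR8H2 stood at 154 CPM at NMYC T0 and at 14.8 ± 14.6 CPM at NMYC T12 (SD, n = 2), and at 136 CPM at parental T0 and 29.7 ± 16.2 CPM at parental T12. Relative to the median gene, these sums changed by a log2 of -3.12 in NMYC cells and -1.87 in parental cells.

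Next to it in NMYC cells were sgRNAs against OR6B1 and OR52E4. The OR6B1 sgRNA (HGLibB_34328) had 1632 counts at NMYC T0, then 365 and 345 at T6, then 5 and 17 at T12, and in parental cells 1520 at T0, then 183 and 76 at T6, then 112 and 916 at T12 (edgeR adjusted p = 0.104 in NMYC cells). The OR52E4 sgRNA (HGLibB_34116), against a class I receptor, had 847 counts at NMYC T0, then 9 and 0 at T6, then 0 and 0 at T12, at least 319-fold lower at T12 (edgeR adjusted p = 0.110). The other sgRNAs of OR52E4 went the other way, with 262 and 83 counts at NMYC T0 against 781 and 580 in the first and 1005 and 878 in the second T12 library. The lowest unadjusted p among higher sgRNAs in NMYC cells belonged to OR4L1, OR5B21 and OR8D1, with edgeR adjusted p from 0.483 to 0.585. The OR5B21 sgRNA (HGLibB_34219) had 334 and 2631 counts at NMYC T12 against 70 at T0, and 579 and 2482 at parental T12 against 95 at T0, above T0 in every later library of both arms.

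In parental cells 0 of 1037 receptor sgRNAs passed in either direction from T0 to T12 in edgeR (background 0.0226% lower, 0% higher and 0.0226% in either direction). With no adjustment, 48 had a p under 0.05 as lower (4.63%, background 5.92%) and 50 as higher (4.82%, background 5.31%), and DESeq2 called 30 lower (background 3.76%) and 67 higher (background 7.45%), 97 in all (9.35%, background 11.2%). The smallest p among lower sgRNAs belonged to OR2B6, OR2L5 and OR10K2. The OR2B6 sgRNA (HGLibB_33729) had 3370 counts at parental T0, then 299 and 82 at T6, then 43 and 15 at T12, and in NMYC cells 1066 at T0, then 113 and 263 at T6, then 142 and 12 at T12. Every later library of both arms was below its T0 (edgeR adjusted p = 0.0748 in parental cells and 0.489 in NMYC cells).

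The OR2L5 sgRNA shows the arms apart: it had 249 counts at NMYC T0, then 1010 and 395 at T6, then 1378 and 922 at T12, and in parental cells 2291 at T0, then 313 and 134 at T6, then 43 and 93 at T12. It was higher than T0 in every later NMYC library and lower in every later parental library, and the difference between the arms' changes did not pass (edgeR adjusted p = 0.360). The second OR10K2 sgRNA (HGLibB_33487) had 2 counts at NMYC T0 and 238 and 18 at NMYC T12, against 1017 at parental T0 and 0 and 1 at parental T12. Its difference did not pass either (edgeR adjusted p = 0.360). Among higher sgRNAs in parental cells, the one against OR10A7 had 1353 and 1103 counts at T12 against 14 at T0, and the one against OR5H15 had 1280 and 1333 against 35 (edgeR adjusted p = 0.339 and 0.348). The OR5B17 sgRNA (HGLibB_34214) was at 0 counts at parental T0, with 77 and 336 at T6 and 90 and 96 at T12.

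The other contrasts called no receptor sgRNA in edgeR. For the difference between the arms' changes, NMYC minus parental, 0 of 1037 passed (background 0%). Unadjusted p-values under 0.05 were found for 55 on the lower side (5.30%, background 6.17%) and 42 on the higher side (4.05%, background 3.78%), and DESeq2 called 25 lower (background 3.86%) and 30 higher (background 2.66%), 55 in all (5.30%, background 6.52%). For NMYC against parental cells at T12, 0 passed (background 0.00189% lower, 0% higher). There 53 lower (background 5.74%) and 57 higher (background 5.22%) had an unadjusted p under 0.05, and DESeq2 called 41 lower (background 4.30%) and 40 higher (background 4.08%), 81 in all (7.81%, background 8.38%).

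At T6 against T0, 0 passed in NMYC cells (background 0%), while 41 lower (background 3.24%) and 6 higher (background 0.452%) had an unadjusted p under 0.05. DESeq2 called 0 lower (background 0.109%) and 1 higher (background 0.0622%) there, and this 1 (background 0.172% in either direction) targets OR2T1. In parental cells 0 passed (background 0.00189% lower, 0% higher), 44 lower (background 4.45%) and 63 higher (background 4.82%) had an unadjusted p under 0.05, and DESeq2 called 16 lower (background 1.73%) and 59 higher (background 5.25%), 75 in all (7.23%, background 6.99%). At T12 against T6, 0 passed in NMYC cells (background 0%), 28 lower (background 2.84%) and 20 higher (background 1.57%) had an unadjusted p under 0.05, and DESeq2 called 3 lower (background 0.633%) and 3 higher (background 0.264%), 6 in all (0.579%, background 0.897%). In parental cells 0 passed (background 0%), 45 lower (background 4.32%) and 18 higher (background 2.12%) had an unadjusted p under 0.05, and DESeq2 called 17 lower (background 1.90%) and 3 higher (background 0.615%), 20 in all (1.93%, background 2.51%).

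Gene by gene, no receptor passed. Robust rank aggregation, which asks whether the sgRNAs of a gene rank together at one end of the list, was run on the 358 receptor genes with at least 2 kept sgRNAs within 18197 genes. In each of the 8 contrasts and in both directions 0 of 358 passed an adjusted p of 0.05, where the background was 0%. At an unadjusted p under 0.05, 12 receptor genes (3.35%, background 5.02%) were lower and 22 (6.15%, background 5.07%) higher in NMYC cells from T0 to T12. In parental cells 12 were lower (3.35%, background 5.11%) and 12 higher (3.35%, background 4.85%), and for the difference between arms 14 were lower (3.91%, background 4.78%) and 17 higher (4.75%, background 4.85%). For NMYC against parental at T12 it was 22 lower (6.15%, background 5.11%) and 18 higher (5.03%, background 4.89%). For T6 against T0 in NMYC cells it was 21 lower (5.87%, background 5.12%) and 17 higher (4.75%, background 4.96%). In parental cells it was 16 lower (4.47%, background 5.01%) and 19 higher (5.31%, background 4.88%). For T12 against T6 in NMYC cells it was 15 lower (4.19%, background 4.96%) and 29 higher (8.10%, background 4.70%). In parental cells it was 20 lower (5.59%, background 4.90%) and 11 higher (3.07%, background 4.89%). DESeq2 gives no gene score and was not run at this level.

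The lowest ranked receptor genes in NMYC cells were OR8H2, OR13A1 and OR6B1 (rank aggregation of edgeR p-values, adjusted p = 0.593, 0.701 and 0.798). OR13A1 had the lowest log2 change of summed CPM of all 366 receptor genes, -3.88, with 257 CPM at NMYC T0 and 11.4 ± 0.64 CPM at NMYC T12 (SD, n = 2), and with 105 CPM at parental T0 and 31.6 ± 1.1 CPM at parental T12. Each of its 3 sgRNAs was lower: they had 858, 901 and 1551 counts at NMYC T0, against 0, 107 and 60 in the first and 3, 26 and 135 in the second T12 library. At parental T12 they had 145, 0 and 356 in the first library and 46, 27 and 424 in the second, against 262, 139 and 1007 at parental T0. The sums at T12 were below T0 in both arms, and the direct comparison at T12 gave NMYC over parental a log2 of -1.12.

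The highest ranked receptor genes in NMYC cells were OR10G3, OR4L1 and OR5B21 (rank aggregation adjusted p = 0.955, 0.955 and 0.959). In OR10G3 and OR4L1 the ranking and the sum disagreed in sign: their summed CPM had a log2 change of -1.06 and -0.56. Abundant sgRNAs outweigh the others in a sum. The ranking takes no account of abundance, and sgRNAs beyond its one-sided limit, such as those going the other way, do not count against a gene. In parental cells the lowest were OR2B6, OR6C68 and OR1A2 (adjusted p from 0.945 to 0.977), with log2 changes of -3.35, -2.63 and -1.37. OR1A2, a receptor known to respond to citronellal and related odorants, stood at 265 CPM at parental T0 and at 84.9 ± 17.9 CPM at T12 (SD, n = 2), while in NMYC cells T12 stood at 117 and 237 CPM, on both sides of the 153 CPM of T0. The highest in parental cells were OR5B3, OR8U8 and OR2S2, each at an adjusted p of 0.983, with log2 changes of 2.16, 3.17 and 2.60.

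For the difference between the arms' changes the lowest were OR8U8, OR10A6 and OR2AG2 (each at an adjusted p of 0.988) and the highest OR10G3, OR3A1 and OR13J1 (each at 0.972). OR8U8 stood at 26.5 CPM at NMYC T0 and at 4.12 and 2.52 CPM at NMYC T12, against 1.12 CPM at parental T0 and 35.1 and 49.4 CPM at parental T12. The arms did not overlap at T12, with a log2 of NMYC over parental of -2.45, but they also differed at T0, in the opposite direction. Receptors with close copies, OR8U8 among them, are uncertain as targets, because which copies an sgRNA cuts cannot be read from a table without sequences.

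The prostate-expressed receptors gave no call. Calls were also scarce for core genes, so the lack of a call does not show a lack of effect. Of 605 kept core sgRNAs, edgeR called 0 as lower from T0 to T12 in NMYC cells and 1 in parental cells. OR51E2 (PSGR), a class I receptor, had a summed level of 63.6 CPM at NMYC T0, then 37.6 and 52.5 at T6, then 47.0 and 134 at T12, and in parental cells 27.2 at T0, then 52.2 and 65.5 at T6, then 88.6 and 42.2 at T12. Its levels at T12 overlapped between the arms, and the log2 change from T0 was 0.43 in NMYC cells and 1.28 in parental cells. OR51E1 (PSGR2) had 23.8 CPM at NMYC T0, then 19.5 and 30.5 at T6, then 18.6 and 64.5 at T12, and in parental cells 178 at T0, then 8.63 and 19.4 at T6, then 140 and 13.8 at T12. A single sgRNA (HGLibB_34051) made the high parental values, with 2348 counts at T0 and 2167 in the first T12 library but 192 in the second. In both arms the 3 sgRNAs of OR51E1 went different ways, and the smallest edgeR adjusted p among the sgRNAs of both genes from T0 to T12 was 0.452 (OR51E2, HGLibB_34054, parental cells).

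The other receptors named by a fixed list, OR8H2 aside, gave no call in edgeR or rank aggregation either, though their changes differed. That list held receptors with a studied role, a known odorant or a mention in an earlier analysis of these data. OR1D2, studied in sperm, had 104 and 49.8 CPM at NMYC T12 against 75.4 at T0, and 3.88 and 42.3 at parental T12 against 9.85 at T0. The arms did not overlap at T12 for OR1D2, but they differed in the same direction at T0. OR2AT4, studied in skin and hair follicle, had 72.8 and 36.1 CPM at NMYC T12 against 103 at T0, and 19.8 and 47.7 at parental T12 against 101 at T0. For OR10H1, OR4M1, OR7C1, OR6A2 and OR5A1 the log2 change of the sum from T0 to T12 ran from -1.61 (OR4M1) to 0.98 (OR6A2) in NMYC cells and from -1.58 (OR7C1) to 1.97 (OR4M1) in parental cells. OR4M1 and OR5A1 thus lay lower in NMYC cells and higher in parental cells, and the reverse held for OR10H1.

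Over all 366 receptor genes the summed levels were spread like those of the library or slightly less. The log2 change relative to the median gene had a median of 0.07 in NMYC cells and 0.03 in parental cells from T0 to T12. The central 90% of receptor genes spanned -1.93 to 1.85 in NMYC cells (all genes -2.19 to 1.94) and -1.88 to 2.25 in parental cells (all genes -2.24 to 2.51). More than 4-fold lower were 16 receptor genes in each arm (4.37%; all genes 6.61% in NMYC cells and 7.31% in parental cells), and more than 4-fold higher were 12 in NMYC cells (3.28%; all 4.40%) and 35 in parental cells (9.56%; all 10.1%). The difference in span was not tested.

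The sgRNAs of a receptor gene showed little joint movement. Over 984 pairs of sgRNAs against the same receptor, the Spearman correlation of the fitted change from T0 to T12 was -0.005 in NMYC cells and -0.03 in parental cells. It was -0.06 and -0.03 for the 562 pairs against core genes, all of them close to 0. In NMYC cells all 3 sgRNAs lay below the median sgRNA for 43 of 313 receptor genes (13.7%; all genes 12.8%) and above it for 37 (11.8%; all 12.7%). In parental cells it was 34 below (10.9%; all 12.7%) and 38 above (12.1%; all 12.2%).

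The spread within a gene was itself wide. The SD of the log2 change over the 3 sgRNAs of a receptor had a median of 2.14 in NMYC cells and 2.72 in parental cells, against 2.22 and 2.81 over all genes. The most uniform receptor in NMYC cells was OR7A5, whose 3 sgRNAs changed by -1.99, -1.99 and -2.03 on the fitted log2 scale. They had 1149, 444 and 1836 counts at NMYC T0, against 628, 158 and 250 in the first and 51, 97 and 742 in the second T12 library, so the single libraries of the same gene were far less uniform than the fitted values. The least uniform in NMYC cells were OR52E4, OR5P2 and OR13J1, and in parental cells OR2F1, OR10G3 and OR5B17, each with an sgRNA at or near 0 counts on one side of the comparison. The most uniform in parental cells were OR51Q1, OR10AD1 and OR52H1.

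Few of the 1037 kept receptor sgRNAs fell to at most 5 counts or appeared late, and the percentages here are of all kept sgRNAs. Not every sgRNA could show either pattern. At NMYC T0 625 receptor sgRNAs had at least 100 counts and 63 had at most 5, and at parental T0 569 and 142 did. Over all 53040 sgRNAs these numbers were 29654 and 4011 at NMYC T0, and 26584 and 8701 at parental T0. From at least 100 counts at T0 to at most 5 in both T12 libraries went 9 receptor sgRNAs in NMYC cells (0.868%; all sgRNAs 1.25%) and 9 in parental cells (0.868%; all 0.965%). From at most 5 counts at T0 to at least 100 in both T12 libraries went 3 in NMYC cells (0.289%; all 0.537%) and 10 in parental cells (0.964%; all 1.82%). For non-targeting sgRNAs, which have no target, losses of this kind made up 1.07% in NMYC cells and 0.857% in parental cells.

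By class, the 52 class I genes (148 kept sgRNAs) and the 314 class II genes (889) differed slightly. The median fitted log2 change from T0 to T12 was 0.53 for class I and 0.20 for class II in NMYC cells, and 0.80 and 0.52 in parental cells. Per library, the class I median lay above the class II median in 8 of 8 later libraries, at 0.15 against -0.13 and 0.20 against -0.06 relative to non-targeting sgRNAs in the NMYC T12 libraries and at 0.02 against -0.00 and 0.16 against -0.04 in the parental T12 libraries. Class I sgRNAs were also less abundant at T0, with a median of 10.8 CPM against 12.2 CPM for class II in NMYC cells and 7.73 against 10.6 in parental cells. The 4 later libraries of an arm share that T0 library, and the part of the T0 level in the class difference was not tested.

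Among the 26 subfamilies with at least 10 kept sgRNAs, the extremes were different ones in each arm. In NMYC cells the lowest medians of the fitted log2 change were -0.86 for OR4C (9 genes) and -0.51 for OR2B (4 genes), and the highest were 1.62 for OR10G (6 genes) and 1.42 for OR56A (4 genes). The same subfamilies in parental cells had 0.79, 0.51, -0.05 and 0.75. In parental cells the lowest were -0.49 for OR5M and -0.12 for OR51B and the highest 1.75 for OR52E and 1.56 for OR8B, where NMYC cells had -0.07, 0.87, 0.12 and 0.49. No subfamily was thus at an extreme of both arms, and with 11 to 40 sgRNAs each these medians carry the wide spread of single sgRNAs.

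Receptor genes lie side by side in the genome in runs of neighbours. By gene order in RefSeq, 338 of the 366 genes lay in 42 runs of at least 2 member genes, and 206 (584 kept sgRNAs) in 13 runs of at least 10. The longest runs, OR2W3 to OR14I1 and OR5W2 to OR5AK2 with 30 member genes each, had median fitted log2 changes of 0.58 and 0.11 in NMYC cells and 0.48 and 0.33 in parental cells. The run furthest from the rest was OR2W1 to OR2H1, with 11 member genes and 30 kept sgRNAs, which had a median of 0.99 in NMYC cells and -1.29 in parental cells. Relative to non-targeting sgRNAs its log2(CPM + 5) change was 0.03 and -0.12 at NMYC T12 and -0.60 and -0.93 at parental T12, and at T6 0.10 and 0.08 in NMYC cells and -0.57 and -0.63 in parental cells. All 4 later parental libraries lay below all 4 NMYC libraries for this run, with 1 parental T0 library behind the 4 values, and the difference was not tested because the run was picked as an extreme of 13.

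The genes through which olfactory receptors signal, mature and reach the cell surface gave no call either. Of 28 such genes (78 kept sgRNAs), 0 passed in any contrast by rank aggregation (background 0%). At an unadjusted p under 0.05, 2 of the 28 were lower and 1 higher in NMYC cells from T0 to T12 (backgrounds 5.02% and 5.07% of all genes), 3 were lower and 2 higher in parental cells (5.11% and 4.85%), and 0 were lower and 3 higher for the difference between arms (4.78% and 4.85%). In NMYC cells the lowest were EBF1, a transcription factor of olfactory neurons, and GNB1, a G protein beta subunit, and the highest CAMK2A, a calcium-dependent kinase, and CNGB1, a subunit of the olfactory channel. CAMK2A stood at 77.8 and 207 CPM at NMYC T12 against 21.7 at T0 (adjusted p = 0.959), and at 15.8 and 71.1 CPM at parental T12 against 90.7 at T0. In parental cells the lowest were CNGB1 and PDE1C, a phosphodiesterase of the sensory cilia, and the highest OMP, the olfactory marker protein, and LDB1, a cofactor in receptor choice. OMP stood at 79.7 and 99.9 CPM at parental T12 against 11.1 at T0, and at 78.4 and 16.7 CPM at NMYC T12 against 15.5 at T0 (adjusted p = 0.983 in parental cells).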

How the data were processed

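The authors deposited unnormalized counts of each sgRNA, in a table with a column for each of the 10 libraries. MAGeCK is named without a version in the submitters' processing notes; the sources used here give no trimming or matching settings. Columns were matched to samples by name, with 0 left unmapped. Per the labels the library held 65000 sgRNAs, of which 55849 are listed. Counts were fitted with edgeR 4.0.16 in R 4.3.3 (TMM, 6 group means, 4 residual degrees of freedom, Benjamini-Hochberg over all kept sgRNAs, threshold 0.05), with all libraries in the same fit because each T0 group holds 1 library, whose spread is taken from the other groups; the common dispersion was 1.11. Genes were scored by robust rank aggregation of the edgeR p-values with a one-sided limit of 0.25 and adjusted over 18197 genes in each direction. Gene sums are of kept sgRNAs. The scripts were tested on simulated data, where recovery of changed genes was required only at a dispersion below that of these data. DESeq2 1.42.0 was an alternative.

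Members and lists were chosen with earlier results of these data known. Named were sgRNAs past the threshold, the smallest p per direction, a fixed set of receptors, the most abundant sgRNA per library, the most and least uniform genes, and extreme subfamilies. The fixed names OR2A4 and OR11H7 are not among the listed symbols, a part on shared guide sequences could not be applied without sequences, and for some contrasts the genes of smallest p are not named. Outside this rule, and after their values were seen, the sgRNAs shared between arms and the neighbour run OR2W1 to OR2H1 were named. Whether replicate numbers pair the samples was not settled. Same-numbered deviations correlated between -0.009 (NMYC T12 with NMYC T6) and 0.053 (parental T12 with parental T6) over all kept sgRNAs. The main fit used no pairing.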

Additional observations from a re-analysis of the deposited data

How the results depend on the processing

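Among receptor sgRNAs, DESeq2 moved the counts of calls most: it called 97 from T0 to T12 in parental cells (0 in edgeR), 27 in NMYC cells (1 in edgeR), and, where edgeR called 0, 55 for the difference between arms, 75 for parental and 1 (OR2T1) for NMYC T6 against T0, 20 for parental and 6 for NMYC T12 against T6, and 81 for NMYC against parental at T12. In NMYC cells the OR8H2 call was lost, leaving 0, with a minimum of 30 counts at T0, with both T0 libraries as baseline, with median-of-ratios factors and with total counts, while the NMYC libraries fitted alone gave 5 (OR10X1, OR13A1, OR52E4, OR6B1 and OR8H2; background 0.545%). With the replicate number as a block it was 0 as well, and the block changed no other call. That block was a single term shared by both arms, so it cannot decide whether the numbers pair the samples. Leaving out a library gave 0 to 3 calls in NMYC cells: 0 without any 1 of the 4 later NMYC libraries, 3 without the first and 2 without the second parental T12 library. In parental cells it gave 0 to 1, where OR2B6 passed without the second NMYC T12 or the second parental T6 library, as it did (1 call) with factors from the non-targeting sgRNAs. The median receptor minus non-targeting change was -0.28 in NMYC cells, -0.0618 as log2(CPM + 5), and -0.29 to -0.11 with a library left out. In parental cells it was -0.23, -0.00915 as log2(CPM + 5), 0.26 with at least 30 counts at T0, and -0.23 to 0.0163 with a library left out. For the difference between arms it was 0.04, -0.17 with at least 30 counts at T0 and -0.38 (without the first parental T12 library) to 0.0377 with a library left out, and for NMYC against parental at T12 it was 0.05, and -0.18 (without the same library) to 0.0578 with a library left out. The cause of these shifts was not tested. Rank aggregation called 0 receptor genes under every alternative run. The fitted common dispersion was 1.11 at totals of 8783512 to 18398571 counts, how much deeper sequencing would lower it was not tested, and 1 T0 library per arm leaves its own spread unmeasured.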
